A study of Arabidopsis thaliana with 10 samples.

Results

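Aquaporins are channel proteins of the major intrinsic protein family, and this account covers the 35 aquaporin genes of Arabidopsis thaliana, matched by locus code among the 27826 genes of the deposited array table. All 35 were found: 5 PIP1, 8 PIP2, 10 TIP, 9 NIP and 3 SIP genes. Names are written with a hyphen, so that PIP2-5 is the gene that the reference table writes with a semicolon. Root transcripts of seedlings aged 20 days were hybridised to 10 Affymetrix arrays, 5 from mcu123 and 5 from the Col-0 wild type. The mcu123 line is labelled as a knockout of 3 MCU genes, which encode pore proteins of the mitochondrial calcium uniporter, and the labels name neither its alleles nor whether more than a single line was used. Both genotypes grew in the same way in sterile hydroponics on a dilute salt medium with sucrose, and received no treatment. Each replicate was RNA from pooled roots cut from the shoot and frozen. Separate growth batches are not stated in the labels, and the p-values therefore cover variation among these pools, which may be technical.

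An aquaporin is a tetramer in which each subunit forms its own pore. PIPs lie mainly in the plasma membrane, where PIP2 proteins conduct water efficiently and PIP1 proteins often need a PIP2 partner to reach the membrane. TIPs lie in the vacuolar membrane and pass water, and some of them ammonia, urea or hydrogen peroxide. NIPs are related to nodulin 26 of soybean and pass small solutes such as boric acid, arsenite or lactic acid, while SIPs lie in the endoplasmic reticulum. In roots, PIPs carry much of the water that crosses cells on its way to the xylem.

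No aquaporin gene passed the test between mcu123 and Col-0, so none of the differences below is a called change. The test was limma on the authors' log2 values, with p-values adjusted over all 27826 genes and a threshold of 0.05. It called 12 genes on the whole table, which is 0.0431% of them (0.00359% higher and 0.0395% lower in mcu123), so 0 of 35 aquaporins is close to that background. The smallest adjusted p of an aquaporin was 0.38, for PIP2-5. At an unadjusted p under 0.05 there were 4 aquaporins (11.4%), against 7.46% of all genes: PIP2-5 and NIP1-1 were higher in mcu123, and NIP4-1 and SIP1-2 were lower. The direction was evenly divided, with 16 aquaporins higher and 19 lower in mcu123. The log2 differences, mcu123 minus Col-0, ran from -0.44 to 0.42, and their median size of 0.09 was below the 0.12 of all genes. The 95% interval of the difference, which is not adjusted for the number of genes, lay within a 2-fold change for 34 of the 35 and within a 1.5-fold change for 24. Over all 27826 genes these counts were 26419 and 19709, so the aquaporins were close to that background. The exception among the aquaporins at 2-fold was NIP2-1, whose interval reached from -1.45 to 0.56.

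**Figure D1:**
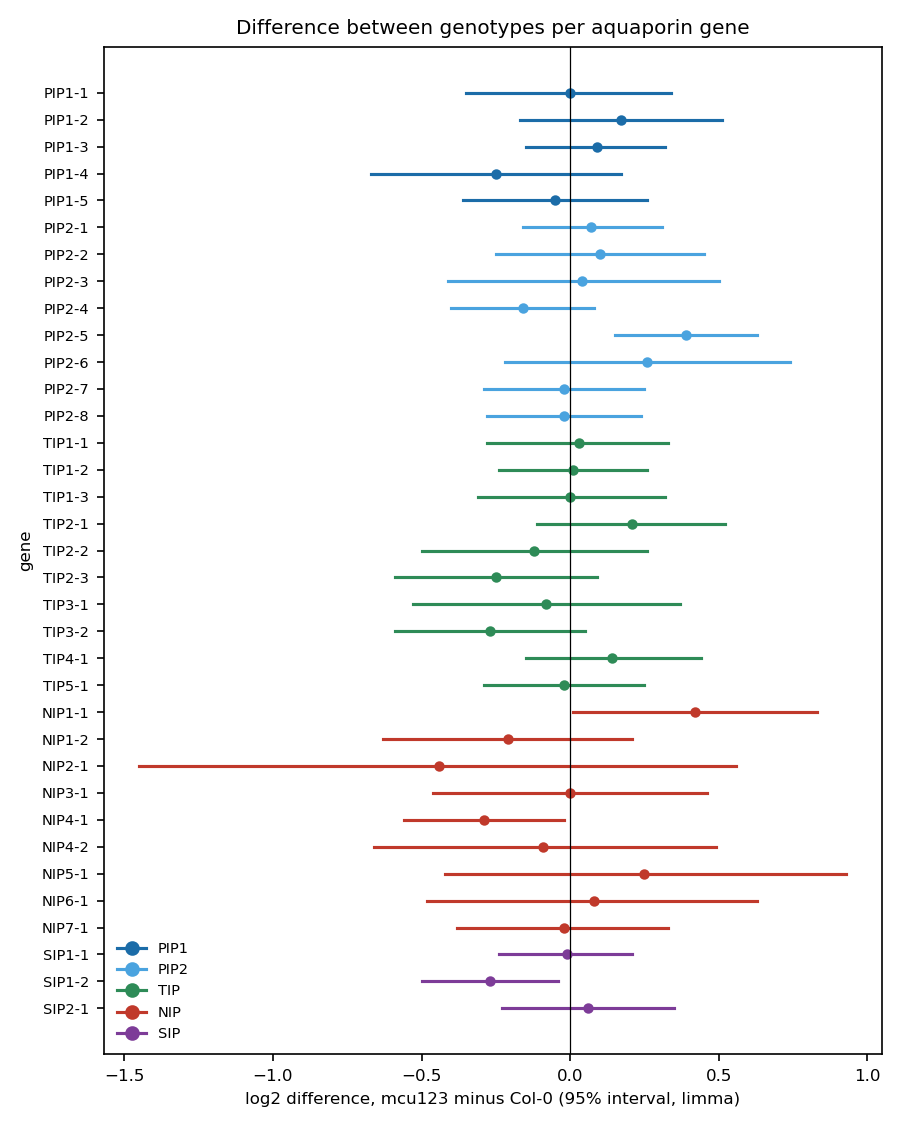
Log2 difference between mcu123 and Col-0 for each aquaporin gene, mcu123 minus Col-0, as a point with its 95% interval from limma (5 arrays per genotype), coloured by subfamily. The points lie between -0.44 and 0.42, and the widest interval belongs to NIP2-1.

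The arrays and labels were checked before the members were compared. The values are log2 intensities made by the authors with RMA, which forces the same distribution on every array, with a median of 4.30. Of the targeted genes, AT2G23790 (MCU3) and AT1G09575 (MCU1) were lower in every mcu123 array than in every Col-0 array (log2 difference -1.98 and -1.66). The locus AT1G57610 (MCU2) averaged 2.77 ± 0.27 in mcu123 and 2.86 ± 0.29 in Col-0 (SD, n = 5 each), and where its probes lie was not known here. The names MCU1 to MCU3 are not in the reference table and were taken from general knowledge. The 8 root markers had means from 4.27 to 10.95, and the 6 markers of photosynthetic shoot tissue from 1.58 to 5.79. One array, mcu123 replicate 3, stood apart: 1468 of its genes were 2-fold or more away from the average of the remaining mcu123 arrays, and for the other arrays this count was 106 to 646 against their own genotype.

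The order of array signal differed strongly between members of each subfamily. Probes of different genes bind their targets with different efficiency, so this is an order of log2 intensity and not of transcript number. Detection calls were not used here, so a dim gene may have been at background. Of the 35 genes, 11 lay in the top 10% of all genes by mean signal and 18 in the top 25%, while 15 lay below the median of all genes and 9 in the lowest 30%. The subfamily medians of the mean log2 signal over the 10 arrays were 7.30 for PIP1, 6.73 for TIP, 6.36 for SIP, 6.35 for PIP2 and 4.05 for NIP. In the order of all 35 genes, 24 of the 34 neighbouring gaps were no larger than the SD of the more variable neighbour.

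**Figure D2:**
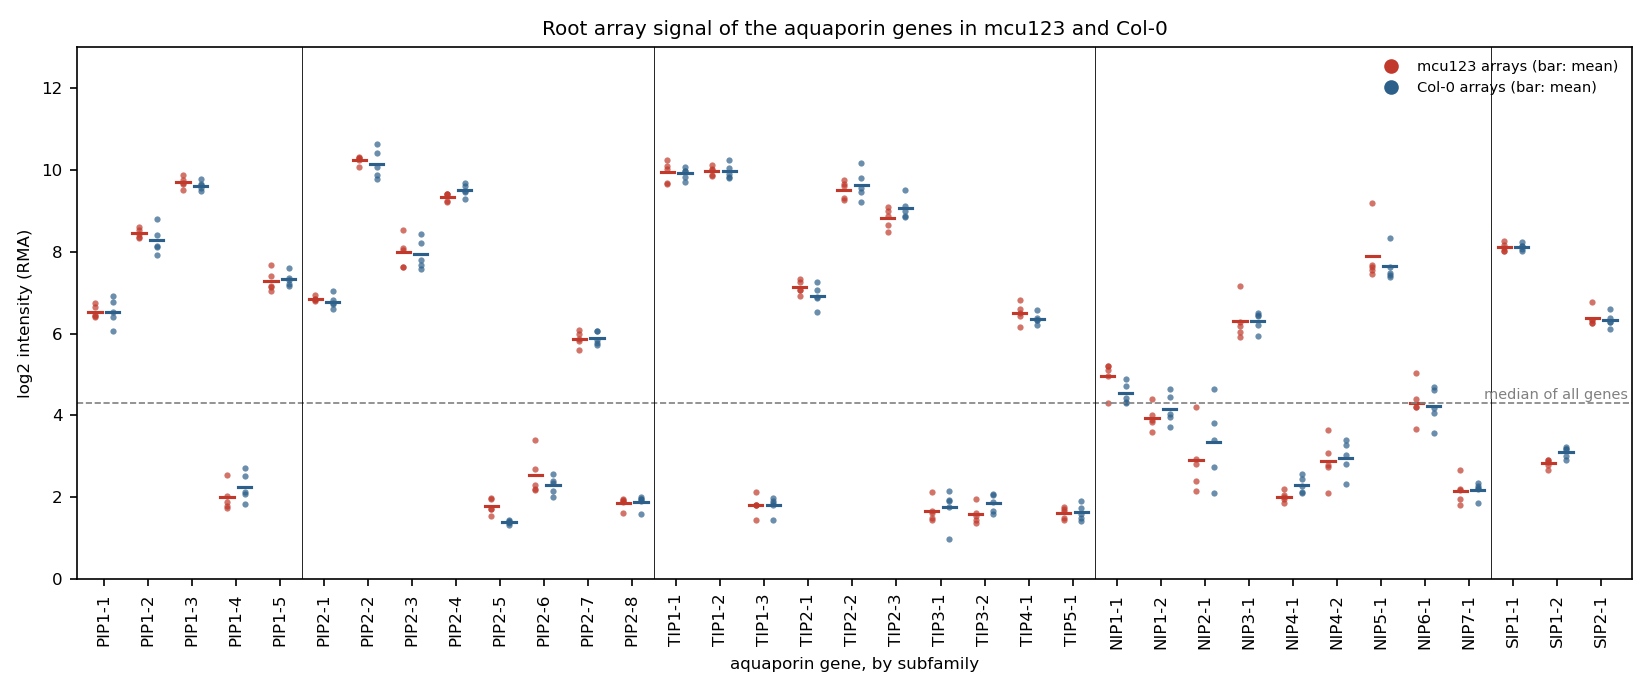
Log2 intensity of the aquaporin genes on every array, with mcu123 points left of Col-0 points, a bar at each mean of 5 arrays, and a dashed line at the median of all genes. PIP2-2, TIP1-1 and TIP1-2 stand near 10, while the means of 4 TIP genes lie together under 2.

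In the PIP1 group, 4 bright genes stood far above a dim one. PIP1-3 (AT1G01620) was the highest, with log2 values of 9.68, 9.88, 9.51, 9.76 and 9.66 in mcu123 and 9.78, 9.65, 9.47, 9.55 and 9.62 in Col-0. The groups overlapped over most of their ranges, with mcu123 replicate 2 above every Col-0 array and Col-0 replicate 3 below every mcu123 array, and the difference was 0.09 (SE 0.11, limma adjusted p = 0.90). PIP1-2, known for a role in root water transport, followed with a mean over the 10 arrays of 8.36, then PIP1-5 at 7.30 and PIP1-1 at 6.54. Each of these gaps exceeded the SD of the neighbours. PIP1-4 (AT4G00430) lay far below the rest at 2.13. It measured 1.79, 2.03, 2.55, 1.89 and 1.74 in mcu123 and 2.51, 2.71, 2.07, 1.83 and 2.14 in Col-0, so the groups overlapped, and its adjusted p of 0.82 was the smallest of the PIP1 genes (log2 difference -0.25, SE 0.19). The values above its mean of 2.13 belonged to Col-0 replicates 1, 2 and 5 and mcu123 replicate 3. The PIP1 mean per array was 6.79 ± 0.06 in mcu123 and 6.80 ± 0.20 in Col-0 (SD, n = 5 each).

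Among PIP2 genes, PIP2-2 had the highest signal of all aquaporins. PIP2-2 (AT2G37170), a water channel of root cells, measured 10.30, 10.06, 10.23, 10.32 and 10.30 in mcu123 and 10.40, 10.62, 9.87, 10.06 and 9.78 in Col-0. The mcu123 arrays lay inside the range of the Col-0 arrays, which were more spread (SD 0.11 over mcu123 and 0.36 over Col-0), and the difference was 0.10 (SE 0.16, limma adjusted p = 0.93). PIP2-4 followed at 9.42, PIP2-3 at 7.96, PIP2-1 at 6.81 and PIP2-7 at 5.88, and every step exceeded the SD of its neighbours. The last 3, PIP2-6 at 2.42, PIP2-8 at 1.87 and PIP2-5 at 1.59, lay below the median of all genes. PIP2-1, which also passes hydrogen peroxide, averaged 6.85 ± 0.05 in mcu123 and 6.78 ± 0.16 in Col-0 (SD, n = 5 each).

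PIP2-5 (AT3G54820) was the single aquaporin whose groups did not overlap. Its log2 values were 1.97, 1.54, 1.72, 1.98 and 1.72 in mcu123 and 1.39, 1.32, 1.38, 1.43 and 1.45 in Col-0. Every mcu123 array was higher than every Col-0 array, with a difference of 0.39 (SE 0.11, 95% interval 0.15 to 0.63), or 1.31-fold, and it did not pass the test (limma adjusted p = 0.38). Groups that do not overlap were found for 1.7% of all genes, 0.683% with mcu123 higher and 1.02% with mcu123 lower, so 1 of 35 (2.86%) is not far from that background. The gene, known from leaves as drought-inducible, lay at the 12.5th percentile of all genes by mean signal. The Col-0 values were very close to each other (SD 0.05).

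PIP2-6 (AT2G39010), known from the veins of rosette leaves, was set apart by 1 array. It measured 2.30, 2.68, 2.19, 2.18 and 3.40 in mcu123 and 2.34, 2.57, 2.40, 2.15 and 1.998 in Col-0. The high value was that of mcu123 replicate 5, and without that array the difference of 0.26 was 0.05 (limma adjusted p = 0.84 with all arrays). Of the shoot markers, RBCS1A, a small subunit of Rubisco, was at 7.98 in that array and at 5.08 to 6.12 in the other mcu123 arrays, against 4.31 to 6.74 in Col-0. LHCB1.3, a light-harvesting protein, was at 3.60 there, at 1.16 to 2.08 in the other mcu123 arrays and at 1.25 to 2.76 in Col-0. The mean of the 6 shoot markers was 3.69 in that array and 2.59 to 2.92 in the other mcu123 arrays, against 2.63 to 3.29 in Col-0. RCA, another of the 6, was at 4.43 there, within the range of the other arrays, and so was RBCS3B at 1.69. GAPA (2.68) and LHCB2.1 (1.77) were highest of the mcu123 arrays there, with LHCB2.1 at up to 1.80 in Col-0. The part of shoot tissue in the PIP2-6 value was not tested.

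TIP genes fell into a bright set of 6 and a dim set of 4. TIP1-2 and TIP1-1, vacuolar water channels, led with means over the 10 arrays of 9.97 and 9.93, a gap smaller than their spread. TIP1-2 (AT3G26520) measured 10.12, 9.99, 9.86, 10.03 and 9.88 in mcu123 and 10.04, 10.24, 9.83, 9.80 and 9.90 in Col-0, with a difference of 0.01 (SE 0.12, 95% interval -0.24 to 0.26). TIP2-2 (9.58), TIP2-3 (8.94), TIP2-1 (7.02) and TIP4-1 (6.43) followed, each step beyond the neighbours' SD. The TIP2 proteins are known to pass ammonia. TIP2-3 averaged 8.81 ± 0.25 in mcu123 and 9.06 ± 0.26 in Col-0, with a difference of -0.25 (SE 0.16, limma adjusted p = 0.78), while TIP2-1 averaged 7.13 ± 0.17 in mcu123 and 6.92 ± 0.27 in Col-0, with a difference of 0.21 (SE 0.14, limma adjusted p = 0.80).

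The dim set held TIP1-3 and TIP5-1, which are known from pollen, and TIP3-1 and TIP3-2, which are known from the protein storage vacuoles of seeds. Their means were 1.80, 1.62, 1.72 and 1.72, and their order could not be told from their spread. TIP3-2 (AT1G17810) had the smallest p of the TIP genes. It measured 1.54, 1.61, 1.36, 1.45 and 1.96 in mcu123 and 1.66, 2.08, 1.89, 1.59 and 2.06 in Col-0, and the groups overlapped (log2 difference -0.27, SE 0.15, limma adjusted p = 0.74). The TIP mean per array was 5.85 ± 0.05 in mcu123 and 5.89 ± 0.09 in Col-0 (SD, n = 5 each).

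NIP genes varied most between arrays of the same genotype. Their median within-genotype SD was 0.38, against 0.26 for PIP1, 0.17 for PIP2, 0.23 for TIP, 0.12 for SIP and 0.25 for all genes. The largest 3 of all aquaporins were NIP2-1 (0.89), NIP5-1 (0.59) and NIP4-2 (0.49). NIP2-1 lay at the 99.4th percentile of all genes for this SD. Part of this spread lay in mcu123 replicate 3. Without that array the SD over the mcu123 arrays fell from 0.73 to 0.10 for NIP5-1 and from 0.79 to 0.36 for NIP2-1. For NIP3-1 it fell from 0.49 to 0.16, and it also fell for NIP1-2, NIP4-2 and NIP7-1. It rose from 0.49 to 0.56 for NIP6-1, from 0.38 to 0.41 for NIP1-1 and from 0.13 to 0.15 for NIP4-1. Over the 10 arrays NIP5-1 had the highest mean signal (7.78), followed by NIP3-1 (6.31), NIP1-1 (4.74), NIP6-1 (4.26), NIP1-2 (4.05), NIP2-1 (3.12), NIP4-2 (2.92), NIP7-1 (2.17) and NIP4-1 (2.16). NIP6-1 and NIP1-2, NIP2-1 and NIP4-2, and NIP7-1 and NIP4-1 were neighbours closer than their spread.

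**Figure D3:**
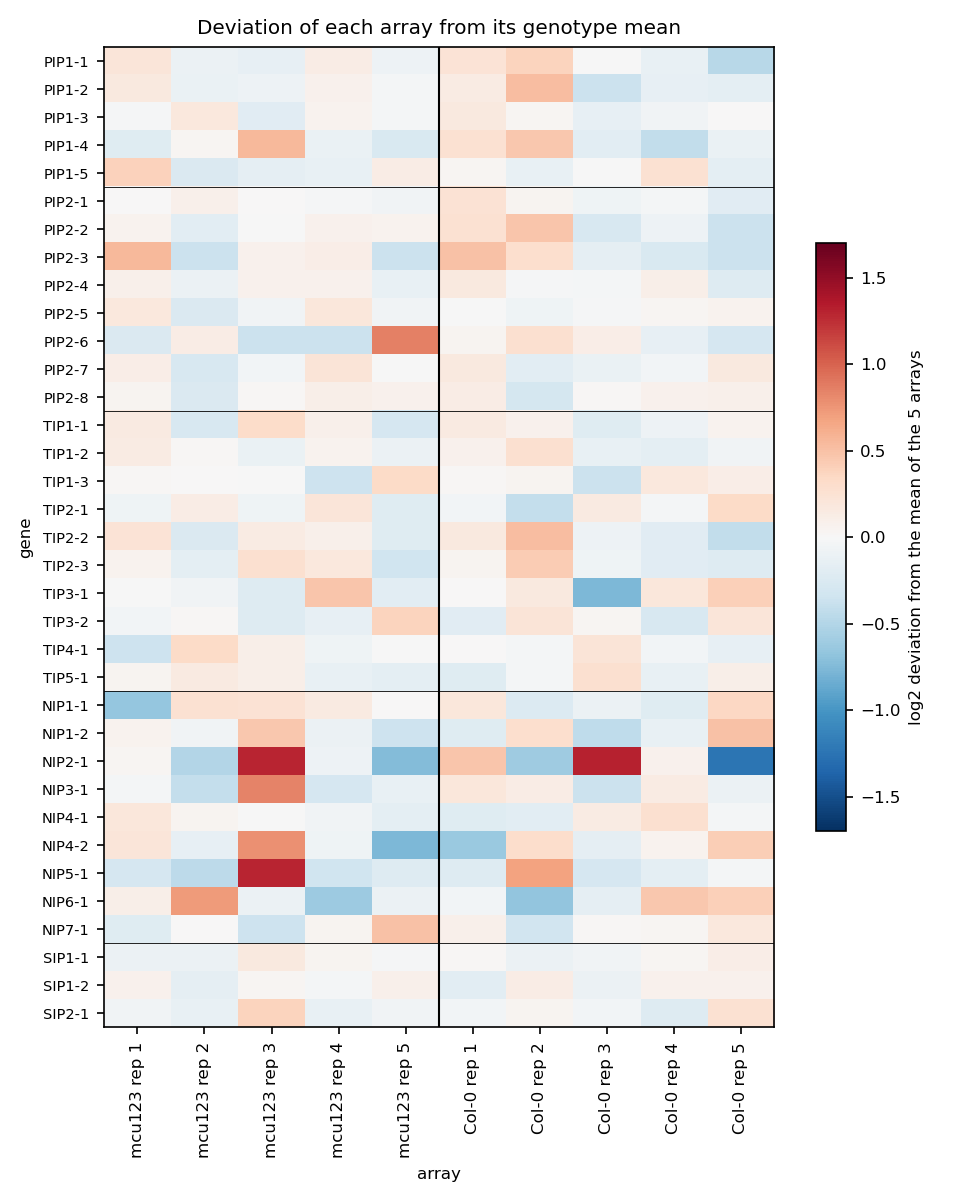
Deviation of each array from the mean of its 5 arrays, on the log2 scale, for the aquaporin genes (rows, by subfamily) and the arrays (columns, mcu123 left of Col-0). The strongest colours are those of NIP2-1 and NIP5-1, with mcu123 replicate 3 high for both.

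NIP5-1 (AT4G10380), the boric acid importer of root cells, was high on 1 array of each genotype. It measured 7.62, 7.46, 9.20, 7.56 and 7.68 in mcu123 and 7.43, 8.34, 7.37, 7.49 and 7.62 in Col-0. The high arrays were mcu123 replicate 3 and Col-0 replicate 2, and the remaining 8 lay between 7.37 and 7.68. The genotype difference of 0.25 (SE 0.31, limma adjusted p = 0.89) was -0.07 without mcu123 replicate 3 and 0.43 without Col-0 replicate 2. BOR2, a borate exporter of the root, was highest on the same arrays, at 8.07, 7.58, 9.52, 8.21 and 7.98 in mcu123 and 8.30, 9.45, 8.12, 7.71 and 7.93 in Col-0. BOR1, which loads boron into the xylem, ran differently, with 8.01, 7.85, 7.03, 8.05 and 7.74 in mcu123 and 7.99, 7.93, 8.05, 8.04 and 6.81 in Col-0. Its lowest mcu123 array was replicate 3, where NIP5-1 was highest, and its lowest Col-0 array was replicate 5. Of the other listed exporters, AT3G06450 was highest of the mcu123 arrays in replicate 3, but not of the Col-0 arrays in replicate 2. For BOR5 and AT5G25430 it was the reverse, and BOR4 and AT4G32510 were highest on neither array. Over all genes, replicate 3 was the highest mcu123 array for 26.3%, and replicate 2 the highest Col-0 array for 23.7%.

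The other genes of boron transport did not pass the test either. Of the 7 genes listed as boron exporters, 3 of which the reference table does not name, 0 were called in either direction, and the median log2 difference was 0.07, against 0.01 over all genes. The member of smallest p was AT5G25430, at 1.82 ± 0.28 in mcu123 and 1.54 ± 0.08 in Col-0 (SD, n = 5 each, limma adjusted p = 0.70). NIP6-1 (AT1G80760), which directs boric acid to young shoot tissue, measured 4.41, 5.03, 4.20, 3.68 and 4.20 in mcu123 and 4.18, 3.56, 4.07, 4.69 and 4.63 in Col-0. It was not high on the arrays where NIP5-1 was, and Col-0 replicate 2 was its lowest array.

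NIP2-1 (AT2G34390), a lactic acid channel known to be induced when roots lack oxygen, varied over a range of more than 4-fold within each genotype. It measured 2.93, 2.40, 4.20, 2.81 and 2.16 in mcu123 and 3.81, 2.73, 4.65, 3.41 and 2.103 in Col-0. The replicate numbers ranked in the same order in both genotypes, with replicate 3 highest, then 1, 4, 2 and 5. The groups overlapped (log2 difference -0.44, SE 0.46, limma adjusted p = 0.88). With the replicate block the limma adjusted p was 0.74. The difference was -0.77 without mcu123 replicate 3 and -0.12 without Col-0 replicate 3. ADH1, alcohol dehydrogenase, and HB1, a haemoglobin, are low-oxygen markers picked here after the values were seen, together with the sucrose synthase SUS4. ADH1 measured 5.93, 5.69, 6.52, 6.58 and 5.46 in mcu123 and 7.42, 6.49, 8.16, 7.12 and 6.15 in Col-0, with the Col-0 arrays in the same order as for NIP2-1. HB1 was lowest of the mcu123 arrays in replicate 3 (5.38), where NIP2-1 was highest, and highest of the Col-0 arrays in replicate 2 (7.29). SUS4 measured 4.17, 3.70, 4.02, 4.19 and 3.05 in mcu123 and 4.63, 5.60, 5.36, 4.38 and 4.26 in Col-0, so that every mcu123 array lay below every Col-0 array. The same held for 1.02% of all genes. All 3 markers, which were picked with these values known, were lower on average in mcu123, and none passed the test. The log2 difference was -1.02 for SUS4 (SE 0.29, limma adjusted p = 0.38), -1.03 for ADH1 (SE 0.35, limma adjusted p = 0.50) and -0.68 for HB1 (SE 0.31, limma adjusted p = 0.67). The part of oxygen supply in the NIP2-1 values was not tested.

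**Figure D4:**
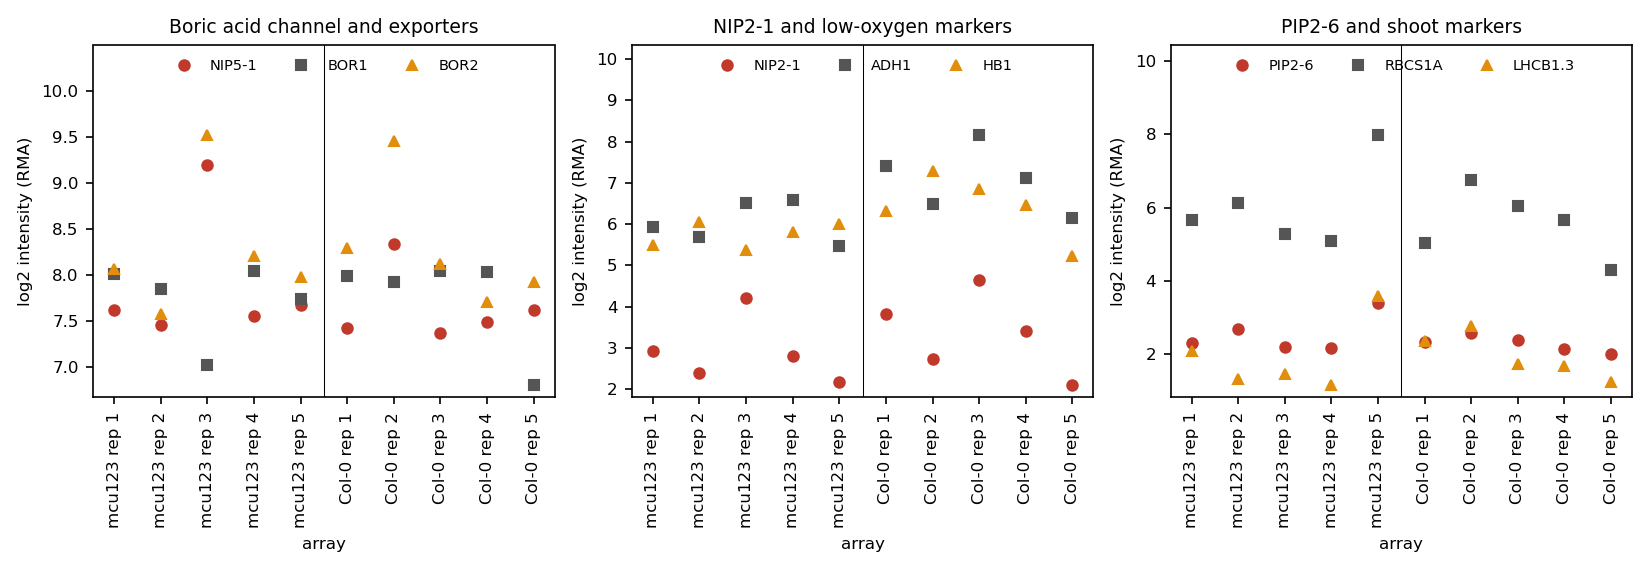
Log2 intensity on every array, mcu123 left of Col-0, for NIP5-1 with BOR1 and BOR2 (left panel), NIP2-1 with ADH1 and HB1 (middle panel) and PIP2-6 with RBCS1A and LHCB1.3 (right panel). NIP5-1 and BOR2 peak on the same array in each genotype, and BOR1 does not. PIP2-6 peaks on mcu123 replicate 5 together with RBCS1A and LHCB1.3, which are only some of the 6 shoot markers.

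NIP3-1 (AT1G31885), known to pass arsenite, was also highest in mcu123 replicate 3. It measured 6.28, 5.91, 7.15, 6.03 and 6.18 in mcu123 and 6.50, 6.44, 5.95, 6.45 and 6.21 in Col-0. Without that array the difference, which was under 0.01 in size, was -0.21 (limma adjusted p = 0.60). NIP4-2 (AT5G37820), a pollen NIP, measured 3.09, 2.74, 3.65, 2.80 and 2.11 in mcu123 and 2.33, 3.27, 2.81, 3.03 and 3.39 in Col-0, again with mcu123 replicate 3 highest. In all, 5 of the 9 NIP genes were highest in that array among the mcu123 arrays, and 10 of the 35 aquaporins (28.6%), where 26.3% of all genes were. Of the 13 PIP genes, 1 was. In replicate 3 the aquaporins 2-fold or more away from the average of the remaining mcu123 arrays were NIP2-1, NIP3-1 and NIP5-1, or 8.57% of the 35, against 5.28% of all genes. The NIP mean was 4.64 in that array and 3.93 to 4.09 in the other mcu123 arrays, against 4.12 to 4.25 in Col-0. The mean NIP difference was -0.03 with all arrays and -0.16 without mcu123 replicate 3. Members went both ways without that array, with 0.36 for NIP1-1 and -0.77 for NIP2-1.

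NIP1-1 (AT4G19030), a channel for arsenite and antimonite, had the largest positive difference of the aquaporins, at 0.42 (SE 0.19, limma adjusted p = 0.66). It measured 4.30, 5.21, 5.20, 5.11 and 4.96 in mcu123 and 4.73, 4.30, 4.43, 4.33 and 4.89 in Col-0. In mcu123, 4 arrays lay above all Col-0 arrays, and mcu123 replicate 1 lay at the bottom of the Col-0 range. NIP1-2, its close relative, differed by -0.21 (SE 0.19, limma adjusted p = 0.85). NIP4-1 (AT5G37810), another pollen NIP, had the smallest p of the NIP genes, at 2.21, 2.06, 2.01, 1.96 and 1.85 in mcu123 and 2.0996, 2.13, 2.45, 2.57 and 2.27 in Col-0. It differed by -0.29 (SE 0.12, limma adjusted p = 0.63) and its groups overlapped at a signal low on the scale. NIP7-1, known from anthers, averaged 2.16 ± 0.33 in mcu123 and 2.18 ± 0.19 in Col-0 (SD, n = 5 each).

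SIP genes were the steadiest between arrays. SIP1-1 (AT3G04090), a water channel of the endoplasmic reticulum, measured 8.01, 8.01, 8.27, 8.16 and 8.09 in mcu123 and 8.14, 8.02, 8.06, 8.15 and 8.24 in Col-0. Its within-genotype SD of 0.10 was the smallest of the aquaporins, at the 2.5th percentile of all genes, and its difference of -0.01 had a 95% interval from -0.24 to 0.21. SIP1-2 (AT5G18290) measured 2.90, 2.67, 2.86, 2.79 and 2.92 in mcu123 and 2.92, 3.23, 2.996, 3.18 and 3.18 in Col-0. The groups met, since mcu123 replicate 5 lay at 2.9160 and Col-0 replicate 1 at 2.9155, and the difference of -0.27 (SE 0.11, 95% interval -0.50 to -0.04) did not pass the test (limma adjusted p = 0.59). SIP2-1 averaged 6.39 ± 0.22 in mcu123 and 6.33 ± 0.18 in Col-0, with mcu123 replicate 3 highest at 6.77.

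Related genes were set side by side across the 10 arrays for 5 pairs of like name, picked after their values were seen. The p-values of these pairs, adjusted only over the 5, do not cover that choice. PIP2-2 and PIP2-3, and NIP4-1 and NIP4-2, are adjacent protein-coding genes in the reference order of TAIR10.1. PIP2-2 and PIP2-3 are close copies, so probes of 1 may also bind transcripts of the other, which could not be checked here. Such binding could not be checked for the other pairs either, TIP2-2 and TIP2-3 among them. PIP2-3 (AT2G37180) measured 8.53, 7.62, 8.05, 8.09 and 7.62 in mcu123 and 8.43, 8.22, 7.79, 7.68 and 7.57 in Col-0, over 1 log2 unit below PIP2-2 on each array. The pair TIP2-2 and TIP2-3 went together most closely (Pearson r = 0.88, permutation p = 0.0013, adjusted over the 5 pairs 0.0064; Spearman rho = 0.82, permutation p = 0.0062, adjusted 0.031; n = 10). Without the 2 arrays farthest from the TIP2-2 median r was 0.83. Both were highest of the Col-0 arrays in replicate 2 and lowest in replicate 5, as were PIP1-1, PIP2-2 and PIP2-6.

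The other pairs did not pass that permutation test after adjustment. PIP2-2 and PIP2-3 had r = 0.68 (permutation p = 0.031, adjusted 0.077) and rho = 0.68 (permutation p = 0.035, adjusted 0.087), and r = 0.62 without the 2 farthest arrays. TIP1-1 and TIP1-2 had r = 0.33 (permutation p = 0.35, adjusted 0.51) and rho = 0.39 (permutation p = 0.26, adjusted 0.33). NIP4-1 and NIP4-2 had r = 0.29 (permutation p = 0.41, adjusted 0.51) and rho = 0.39 (permutation p = 0.27, adjusted 0.33). NIP1-1 and NIP1-2 had r = -0.05 (permutation p = 0.90, adjusted 0.90) and rho = -0.28 (permutation p = 0.43, adjusted 0.43). Without the 2 farthest arrays r was 0.33, 0.53 and 0.17 for these 3 pairs. With each value centred on its genotype mean, TIP2-2 and TIP2-3 had r = 0.90 (exact permutation p = 0.0021 over the 14400 orders of arrays within the genotypes, adjusted over the 5 pairs 0.01) and rho = 0.84 (exact permutation p = 0.0064, adjusted 0.032). This check was added after the data were seen, and under it the other 4 pairs had r of 0.19 to 0.69 and did not pass after adjustment. Arrays also share their whole-array variation.

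**Figure D5:**
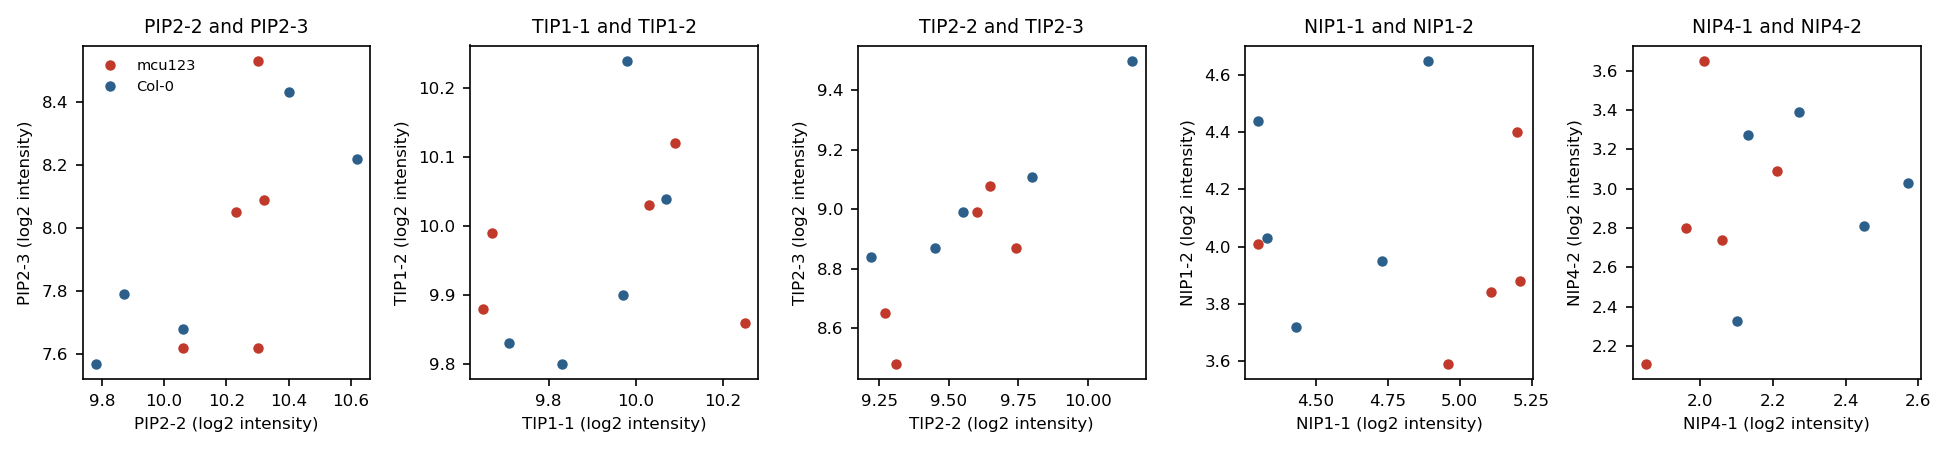
Log2 intensity of the second gene against the first for 5 pairs of related aquaporins, 1 point per array, mcu123 and Col-0 in different colours. The points of TIP2-2 and TIP2-3 lie nearest to a line (r = 0.88).

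Some arrays were high or low for several PIP genes. Among the mcu123 arrays, replicate 1 was the highest for 5 of the 13 PIP genes and replicate 2 the lowest for 7, where these arrays were so for 16.5% and 23.4% of all genes. Among the Col-0 arrays, replicate 5 was the lowest for 7 PIP genes, and replicates 1 and 2 were the highest for 5 each, where the shares over all genes were 21.8%, 15.9% and 23.7%. The mean of all 35 genes per array ran from 5.46 to 5.68 in mcu123 and from 5.47 to 5.61 in Col-0, with a difference between genotypes of -0.01. Roots hold several cell types, and in such bulk samples fewer cells of a type and less RNA per cell cannot be told apart.

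Genes for proteins that act on aquaporins did not pass the test between genotypes, which covers their transcripts only. The list of 12 held the syntaxins SYP121 and SYP61 and the vacuolar SNARE VAMP711, which act in vesicle traffic, the ubiquitin ligases RMA1 to RMA3, the membrane protein TSPO, the kinases CPK7, SIRK1, OST1 and BAK1, and the locus AT3G24715. Of these, 0 were called, with 4 higher and 8 lower in mcu123 and a median log2 difference of -0.09, against 0.01 over all genes. The member of smallest p was RMA1, at 2.32 ± 0.27 in mcu123 and 2.58 ± 0.21 in Col-0 (SD, n = 5 each, log2 difference -0.26, limma adjusted p = 0.75). CPK7, a calcium-dependent protein kinase linked to the abundance of PIP2 proteins, averaged 8.49 ± 0.21 in mcu123 and 8.68 ± 0.07 in Col-0 (log2 difference -0.19, limma adjusted p = 0.79).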

How the data were processed

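The deposited values are log2 intensities, 1 per locus and array, which the authors made with RMA, per the submitters' processing notes. No source used here names the array model, the probe grouping or the build. The sorted values of all 10 columns were identical, so a shift shared by all genes cannot be seen. The number of arrays limits the precision. No gene was dropped. The genotypes were tested by limma 3.58.1 under R 4.3.3 (lmFit and eBayes, genotype as the single term, two-sided, Benjamini-Hochberg over 27826 genes). On simulated data with the spread of these arrays and 27826 genes, this fit recovered 15.6% of genes with a simulated log2 change of 0.5, 69.6% at 1 and 94.0% at 1.5. More genes were changed in the simulation than were called in the real data. The adjustment is more lenient in that case, so recovery in the real data may be lower.

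The members and lists were chosen with earlier results of these data known. Names came from the gene lists, checked against the RefSeq table of TAIR10.1, which held all 35 members. Values on every array are given for members whose groups do not overlap, for the highest and the smallest-p member of each subfamily, for the 3 with the largest within-genotype SD and for PIP2-2 and PIP2-3. Other members shown array by array (PIP2-6, NIP1-1, NIP3-1, NIP6-1) were chosen after their values were seen. The 5 pairs were picked after their values were seen, and their correlations used 100000 permutations. Over all genes, deviations of same-numbered arrays correlated at -0.21 to 0.09. A pairing that touches only some genes was not tested, and NIP2-1 ranked the replicate numbers alike in both genotypes. Alternatives were a filter on the dimmest 30% of genes, cyclic loess, a trended robust prior, array weights, the replicate block and leaving out each array. No scan date was given, so batches were not tested.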

Additional observations from a re-analysis of the deposited data

Results flagged for a closer look

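An array was examined further where its gap to the nearest array of its genotype was a large share of the range of the 5 arrays. This held in 7 of 82 sets, with about 4.1 due by chance, and mcu123 replicate 3 accounted for 3 of them. NIP5-1 was highest in mcu123 replicate 3 (share 0.872) and in Col-0 replicate 2 (0.746). In mcu123 replicate 3, SIP2-1 at 6.77 (0.852) and the NIP mean at 4.64 (0.773) were high as well. The NIP mean includes NIP5-1, so those results overlap. NIP1-1 was lowest in mcu123 replicate 1 at 4.30 (0.729). PIP2-8, a water channel near the bottom of the scale, was lowest in replicate 2 of both genotypes, at 1.61 in mcu123 (0.752) and 1.58 in Col-0 (0.757), while its other arrays lay at 1.88 or above.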

How the results depend on the processing

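No aquaporin passed the threshold under any of the 15 alternatives, and the smallest adjusted p was 0.16, for PIP2-5 with array weights (limma). With the dimmest 30% of genes dropped, 26 of the 35 were tested, and the 9 left out included PIP2-5 and NIP4-1. The count over all genes was 12 as reported, 7 with the dimmest 30% dropped, 35 with a trended robust prior, 30 with array weights and 8 with the replicate block, and it ran from 5 (without Col-0 replicate 1, Col-0 replicate 3 or mcu123 replicate 5) to 22 (without mcu123 replicate 3) with 1 array left out. It was 6 without Col-0 replicate 4 or mcu123 replicate 4 and 7 without mcu123 replicate 2. The replicate block left 0 aquaporins called. With 1 array left out the mean difference ran from -0.05 to 0.05 for PIP1, from 0.05 to 0.13 for PIP2, from -0.06 to -0.00 for TIP, from -0.16 (without mcu123 replicate 3) to 0.02 for NIP and from -0.12 to -0.04 for SIP. In 17 aquaporins the difference kept its direction in all fits that included them. It took both signs with 1 array left out in PIP1-1 (-0.12 to 0.09), PIP1-5 (-0.15 to 0.01), PIP2-3 (-0.09 to 0.17), PIP2-7 (-0.07 to 0.05), PIP2-8 (-0.10 to 0.04), TIP1-1 (-0.05 to 0.10), TIP1-2 (-0.03 to 0.08), TIP1-3 (-0.09 to 0.09), TIP2-2 (-0.23 to 0.01), TIP3-1 (-0.27 to 0.02), TIP5-1 (-0.07 to 0.05), NIP3-1 (-0.21 to 0.10), NIP4-2 (-0.28 to 0.11), NIP5-1 (-0.07 to 0.43), NIP6-1 (-0.10 to 0.23), NIP7-1 (-0.15 to 0.06), SIP1-1 (-0.06 to 0.01) and SIP2-1 (-0.03 to 0.13). With array weights it took the other sign in PIP1-1 (0.04), PIP2-7 (0.03), TIP1-3 (-0.03), TIP3-1 (0.03) and NIP6-1 (-0.10), and with cyclic loess in TIP1-2 (-0.00). The correlation of NIP1-1 and NIP1-2 took the other sign with values centred on genotype means (0.19), a setting added after the data were seen. The cause was not tested.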
